A study of Gallus gallus with 48 samples.

Results

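Oxidative phosphorylation genes encode the parts of the respiratory chain in the inner mitochondrial membrane. Here they were taken as every gene whose symbol in the array's probe annotation begins with NDUF, SDHA to SDHD, UQCR, COX followed by a digit, or ATP5. The rule gave 48 of the 6428 named genes, on 71 probes: 21 named for complex I, 2 for complex II, 6 for complex III, 9 for complex IV and 10 for complex V. All 48 were found in the RefSeq gene table of assembly GRCg7b. To be tested, a gene needed values from 3 or more of the 4 arrays in each group. Of the 48 genes 42 passed, among 11207 features (5644 named genes, the rest unnamed probes). The 6 that were not tested were COX4I1, COX6A1, NDUFB9, NDUFA5, NDUFAF2 and NDUFB10, with a value on 44, 42, 37, 27, 22 and 1 of the 48 arrays. The values of NDUFAF2 and NDUFB10 were all exact zeros.

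Complex I takes electrons from NADH and complex II, succinate dehydrogenase, takes them from succinate. Both pass them through ubiquinone to complex III and on by cytochrome c to complex IV, which reduces oxygen. Complexes I, III and IV pump protons, and complex V, ATP synthase, uses the gradient to make ATP. Most subunits are encoded in the nucleus, made on cytosolic ribosomes and imported, while assembly factors such as NDUFAF1, COX10, COX17, COX18 and COX20 build the enzymes without being part of them. Endocrine cells use the ATP for hormone synthesis and release. Grouping went by symbol, and symbols can mislead: NDUFA4, named for complex I, is now known as a subunit of complex IV, and COX7A2L is known for joining complexes III and IV into supercomplexes.

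The cells were primary chicken anterior pituitary cells, dispersed on embryonic day 11 and plated in serum-free medium with insulin and transferrin. In 5 groups the cells had 1.5 h of cycloheximide (CHX, which blocks cytosolic translation, 10 micrograms per ml) and then corticosterone (CORT, the main avian glucocorticoid, 1e-09 M) for 1.5, 3, 6, 12 or 24 h. Another group had CHX alone (0 h of CORT), 5 groups had CORT for the same times without CHX, and the last was untreated. Each of the 12 groups had 4 samples, called biological replicates. The labels leave unsaid if each had its own cell preparation, and a p-value here reflects how these samples differ among themselves. Time in culture ran together with time in CORT, and the labels do not say whether CHX was removed, so "after CHX" gives the order alone. The cells were a mixture, so that fewer cells of a type and less RNA per cell cannot be told apart.

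Each value is a deposited log2 ratio of a sample to a pool of all 48 samples, averaged over the probes of a gene. A ratio to a pool gives no level, so genes are compared only in how they differ between groups. No label gives its direction. It was taken as the sample divided by the pool, a likely reading because with CORT the glucocorticoid target FKBP5 was higher in 10 of 10 comparisons (0.62 to 1.82). With the other reading, each direction below turns round. Of 19 listed pituitary markers 14 were tested, among them GH, PRL, TSHB, FSHB and POMC. Between 14609 and 16840 of 19200 probes had a value on each array. Arrays stood apart from each other: correlations of pairs ran from -0.76 to 0.88 over all features, and inside groups from -0.70 to 0.79 with a median of 0.31. Samples carried Cy3 and the pool Cy5 throughout, and no array's sign was changed. Of the spread inside groups 51.5% lay along an axis common to many features, and the way the oxidative phosphorylation genes followed it is given after the comparisons.

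Few transcripts of the respiratory chain differed between treatments by more than the arrays of a group did. Of 672 differences (42 genes in 16 comparisons) only 1 passed the test, NDUFS3 at 24 h of CORT after CHX, against 0.973% of all feature and comparison pairs. That made 1 of 42 genes called in any comparison (2.38%), against 9.02% of all features. The test was limma's moderated test in a fit of all 48 arrays, with Benjamini-Hochberg adjustment over all 11207 features of a comparison and a threshold of 0.05. At an unadjusted p under 0.05 stood 25 differences (3.72%), against 7.5% of all pairs, and in 8 (1.19%) the groups did not overlap, against 4.06%. The fitted differences ran to 0.99 on the log2 scale, so none reached 2-fold. Of the 672 confidence intervals (95%), 645 (96.0%, against 95.7% for all features) lay within 2-fold in either direction. Within 1.5-fold lay 442 (65.8%, against 73.7%). An interval reached a median of 0.40 to either side of its difference (0.18 to 0.96), against 0.33 over all features. The SD within groups had a median of 0.28 over the members and 0.23 over all features. Since members were measured less precisely, their lower share of calls does not show that they responded less. The median over the 42 genes lay between -0.10 and 0.04 in the 16 comparisons, beside -0.02 to 0.05 over all features.

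**Figure D1:**
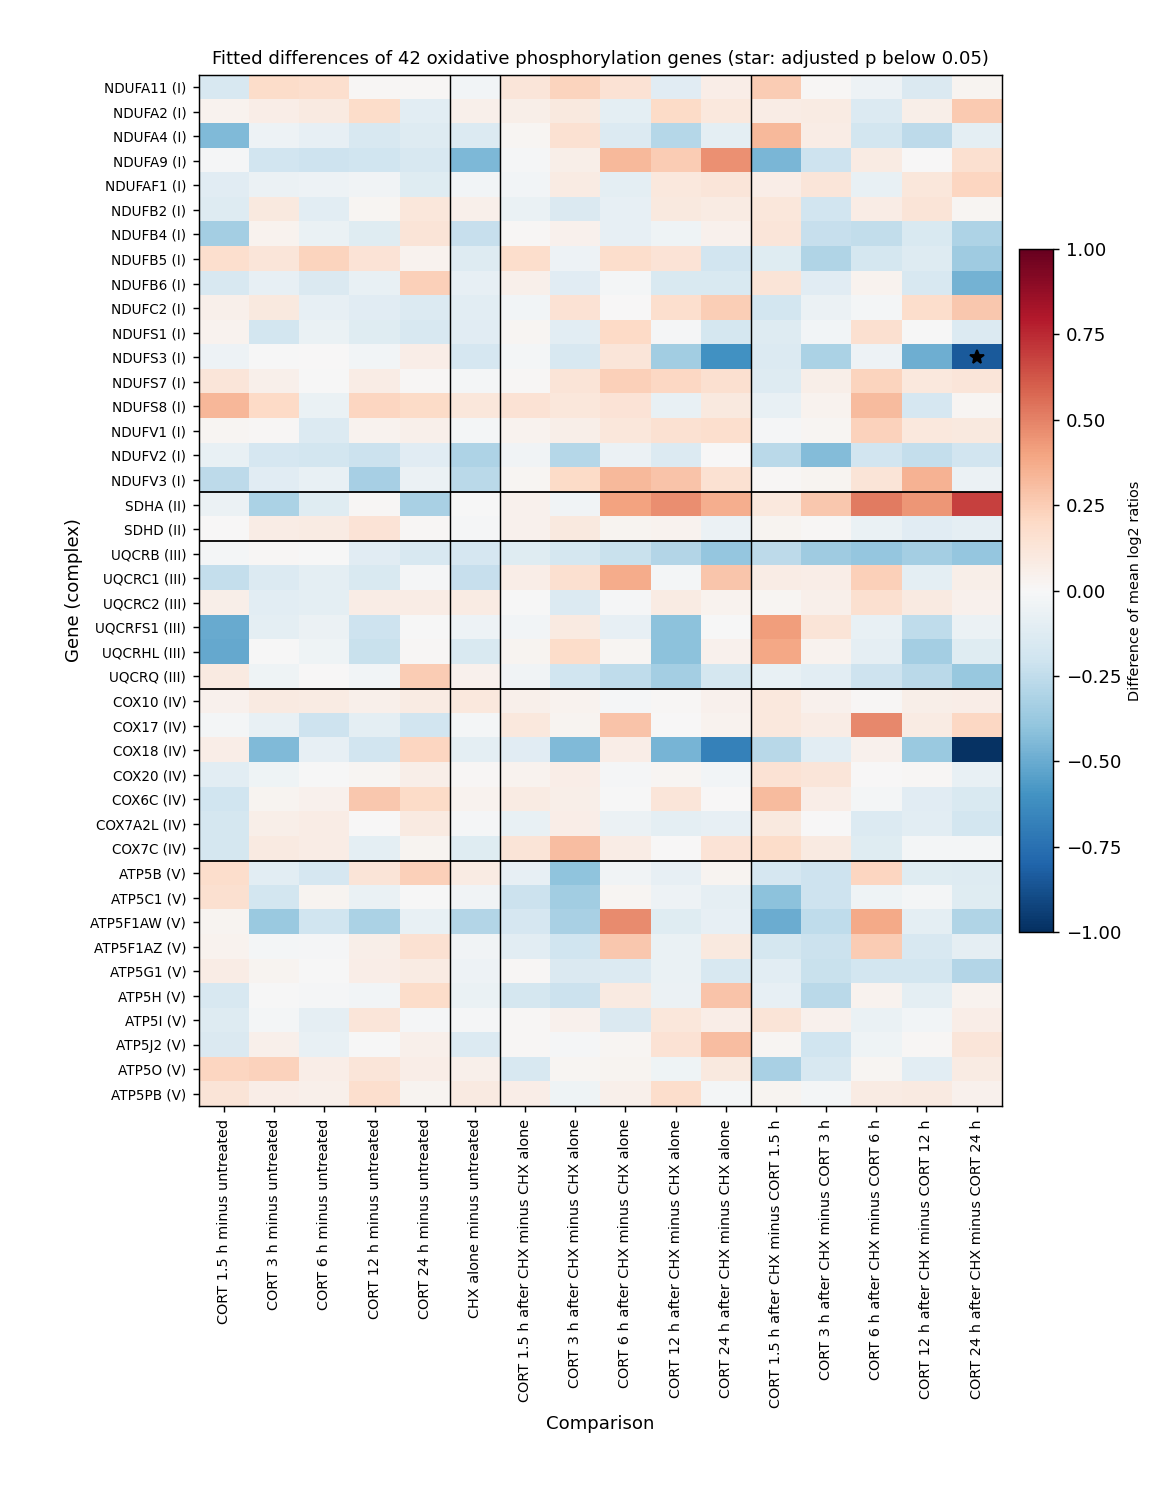
Fitted difference of mean log2 ratios (colour, red higher in the group named first) of 42 genes (rows, complex in parentheses) in 16 comparisons (columns). The darkest cells, COX18 at -0.99 and NDUFS3 at -0.84, are both in CORT 24 h after CHX minus CORT 24 h, and NDUFS3 there has the only star.

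CORT without CHX called no member at any time. The share of all features called was 0% at 1.5 h, 0.0268% at 3 h, 0.0982% at 6 h and 0.0178% at both 12 and 24 h, so there was little to compare them with. Unadjusted p-values under 0.05 were found in 4 of 210 differences (1.9%, against 2.91% of all features), and all 4 were lower with CORT. Of these, 3 were at 1.5 h: NDUFA4, UQCRHL (a hinge protein of complex III by its name) and UQCRFS1 (the Rieske iron-sulfur protein of complex III). Of all features 6% had such a p-value in limma's test at 1.5 h, 539 lower and 133 higher. The lower direction was therefore not particular to these genes.

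NDUFA4 had log2 ratios of -0.67, -0.61, -0.22 and -0.08 after 1.5 h of CORT, against -0.04, 0.04, 0.10 and 0.09 in untreated cells. The groups did not overlap (3.05% of all features did not in this comparison), and the difference was -0.44 (SE 0.14, limma adjusted p 0.428). UQCRHL had -0.89, -0.68, -0.26 and -0.11 after 1.5 h, against -0.12, -0.01, 0.11 and 0.12 in untreated cells (-0.51, SE 0.19, limma adjusted p 0.606). Here the highest CORT array lay just above the lowest untreated one. UQCRFS1 had -0.91, -0.57, -0.32 and 0.01 after 1.5 h, against -0.30, 0.15, 0.11 and 0.27 in untreated cells (-0.50, SE 0.20, limma adjusted p 0.617). In each of these genes all 4 CORT arrays were below the untreated array of the same replicate number, with differences from -0.77 to -0.17. For NDUFA4 any pairing would give this, since its groups did not overlap. Samples of the same number did not all deviate together in this comparison (correlations of -0.001 to 0.53). The numbers are therefore not read as pairs here.

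By 3 h of CORT these 3 genes were near the pool, with means of -0.01 ± 0.09 for NDUFA4, 0.02 ± 0.20 for UQCRHL and -0.04 ± 0.29 for UQCRFS1 (SD, n = 4 each). The same genes had low means in another group, CORT 12 h after CHX, with -0.37 ± 0.29 for NDUFA4, -0.54 ± 0.52 for UQCRHL and -0.40 ± 0.30 for UQCRFS1. Against CHX alone the differences there were -0.28, -0.41 and -0.41, with limma adjusted p from 0.400 to 0.430, so none passed. Across the 48 arrays, with group means removed, the 3 genes correlated with each other at 0.77 to 0.83. Over all pairs of members the median was 0.23 within complexes and 0.22 between them, with a highest value of 0.95. The cause was not tested, and no p is given, since all arrays share a pool and a processing.

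**Figure D2:**
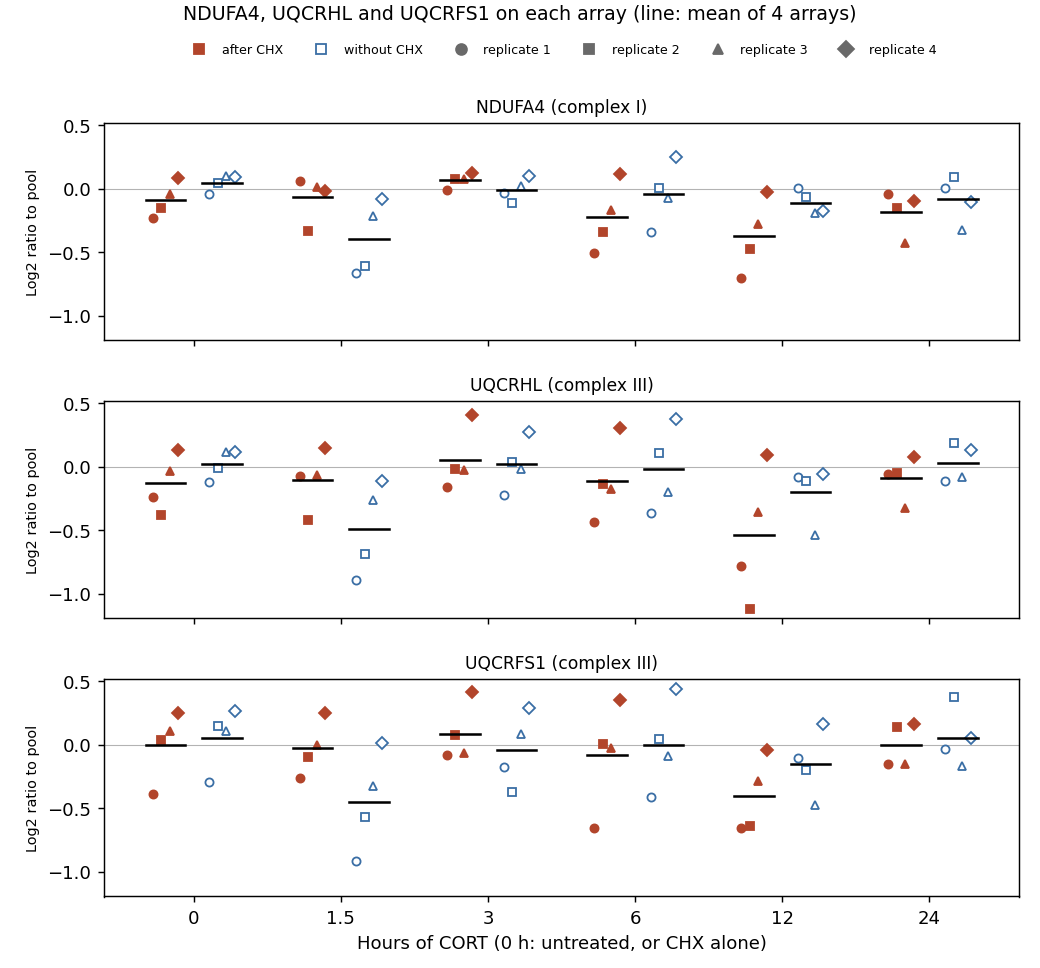
Log2 ratio to the pool of NDUFA4, UQCRHL and UQCRFS1 on each array, by hours of CORT, with the groups after CHX (filled) left of those without (open). Marker shape is the replicate number and the line the mean of 4 arrays. The lowest means are those at 1.5 h without CHX and at 12 h after CHX.

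At later times without CHX the nearest to a difference was NDUFV3, an accessory subunit of complex I, at 12 h. It had -0.24, 0.10 and -0.35 there (1 array had no value), against -0.41, 0.50, 0.36 and 0.22 in untreated cells, a difference of -0.33 (SE 0.15, limma adjusted p 1.00). The untreated arrays held both the lowest and the highest of these values.

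CHX alone called no member either, with 0.0178% of all features called. The lowest p-values were those of NDUFA9, NDUFV3 and COX7C. Of 42 differences 11 (26.2%) were above 0, against 48.8% of all features, and their median of -0.04 ran from -0.15 to 0.00 with arrays left out. A low share above 0 was not confined to CHX alone. It was 31.0% (against 53.3%) in CORT 6 h minus untreated, and 35.7% (against 53.6%) in CORT 12 h after CHX minus CORT 12 h. In CORT 24 h minus untreated it was 61.9% (against 51.9%). NDUFA9, a complex I subunit at the junction with the membrane arm, had -0.30, 0.35, 0.23 and 0.11 in CHX alone, against 0.05, 1.28, 0.36 and 0.50 in untreated cells. The difference was -0.45 (SE 0.19, limma adjusted p 1.00), and replicate 2 of the untreated cells stood far above all others. Without that array the difference had its smallest size, -0.21. NDUFV3 differed by -0.27 (SE 0.14) and COX7C, a small structural subunit of complex IV, by -0.12 (SE 0.12).

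CORT after CHX, set against CHX alone, called no member. The shares of all features called were 0.0178% at 1.5 h, 0.0268% at 3 h, 1.15% at 6 h, 1.12% at 12 h and 2.24% at 24 h. Of 210 differences 8 had an unadjusted p under 0.05 (3.81%, against 8.46% of all features), 3 of them higher. COX7C at 3 h, NDUFS3 at 24 h and NDUFA9 at 24 h had the lowest p-values.

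COX7C had 0.05, 0.11, 0.56 and 0.19 at 3 h of CORT after CHX, against -0.13, -0.31, -0.04 and 0.17 in CHX alone (0.31, SE 0.12, limma adjusted p 0.611). Replicate 3 at 3 h was far above the rest, and the groups overlapped. NDUFA9 had 0.42, 0.69, 0.59 and 0.50 at 24 h of CORT after CHX, all above the values of -0.30, 0.35, 0.23 and 0.11 in CHX alone (6.95% of all features did not overlap here). The difference was 0.46 (SE 0.19, limma adjusted p 0.279). That mean, 0.55 ± 0.11, equalled the untreated mean of 0.55 ± 0.53 at this rounding. Both NDUFA9 differences use the same CHX alone arrays.

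NDUFS3, a core subunit of complex I in the arm that binds ubiquinone, had means of 0.10, -0.04, 0.24, -0.23 and -0.49 at 1.5, 3, 6, 12 and 24 h of CORT after CHX, with 0.12 in CHX alone. Its 24 h difference from CHX alone was -0.60 (SE 0.24, limma adjusted p 0.229). COX18, which helps insert a mitochondrially encoded subunit of complex IV into the membrane, differed there by -0.68 (SE 0.32, limma adjusted p 0.371). Its 4 values at 24 h did not overlap those in CHX alone, as was true of 6.95% of all features in that comparison. NDUFV3 at 6 h of CORT after CHX, with a mean of 0.22 ± 0.10, did not overlap CHX alone (-0.10 ± 0.21), as was true of 5.69% of all features, and differed by 0.32 (limma adjusted p 0.411).

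Cells given CHX before CORT were then set against cells given CORT alone at the same time. Here 12 of 210 differences had an unadjusted p under 0.05 (5.71%, against 12.1% of all features), 6 of them higher. No members were called at 1.5 h (0.393% of all features), 3 h (0.161%), 6 h (3.93%) and 12 h (1.4%), and 1 member, NDUFS3, at 24 h (4.95%).

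NDUFS3 had log2 ratios of -0.74, -0.37, -0.26 and -0.58 at 24 h of CORT after CHX, against -0.27, 0.35, 0.74 and 0.59 at 24 h of CORT alone. All but replicate 1 of the CORT cells lay above every array after CHX. The means were -0.49 ± 0.22 and 0.35 ± 0.44 (SD, n = 4 each), and the difference was -0.84 (SE 0.24, interval -1.32 to -0.36, limma adjusted p 0.0288). Of the 2 probes of NDUFS3, 1 had a value on 1 array only, so the result rests on the other probe. At 12 h the difference was -0.49 (SE 0.24, limma adjusted p 0.409), and at 6 h it was -0.05.

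COX18 had -0.66, -0.76, -0.42 and -0.63 at 24 h of CORT after CHX, against -0.14, 0.71, 0.25 and 0.68 at 24 h of CORT alone. The groups did not overlap (10.3% of all features did not in this comparison), and the difference of -0.99 (SE 0.32, interval -1.63 to -0.35) had a limma adjusted p of 0.0591. SDHA, the flavoprotein of succinate dehydrogenase, had a difference of the opposite sign. It had 0.31, 0.88, -0.33 and 0.15 at 24 h of CORT after CHX, against -0.45, -0.39, -0.38 and -0.50 at 24 h of CORT alone, a difference of 0.68 (SE 0.26, limma adjusted p 0.123). Again the groups did not overlap, and the CORT arrays lay close together (SD 0.05) while those after CHX were spread widely (SD 0.50). At 6 h SDHA differed by 0.52 with no overlap (10.6% of all features) and at 12 h by 0.44, with limma adjusted p of 0.353 and 0.553.

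**Figure D3:**
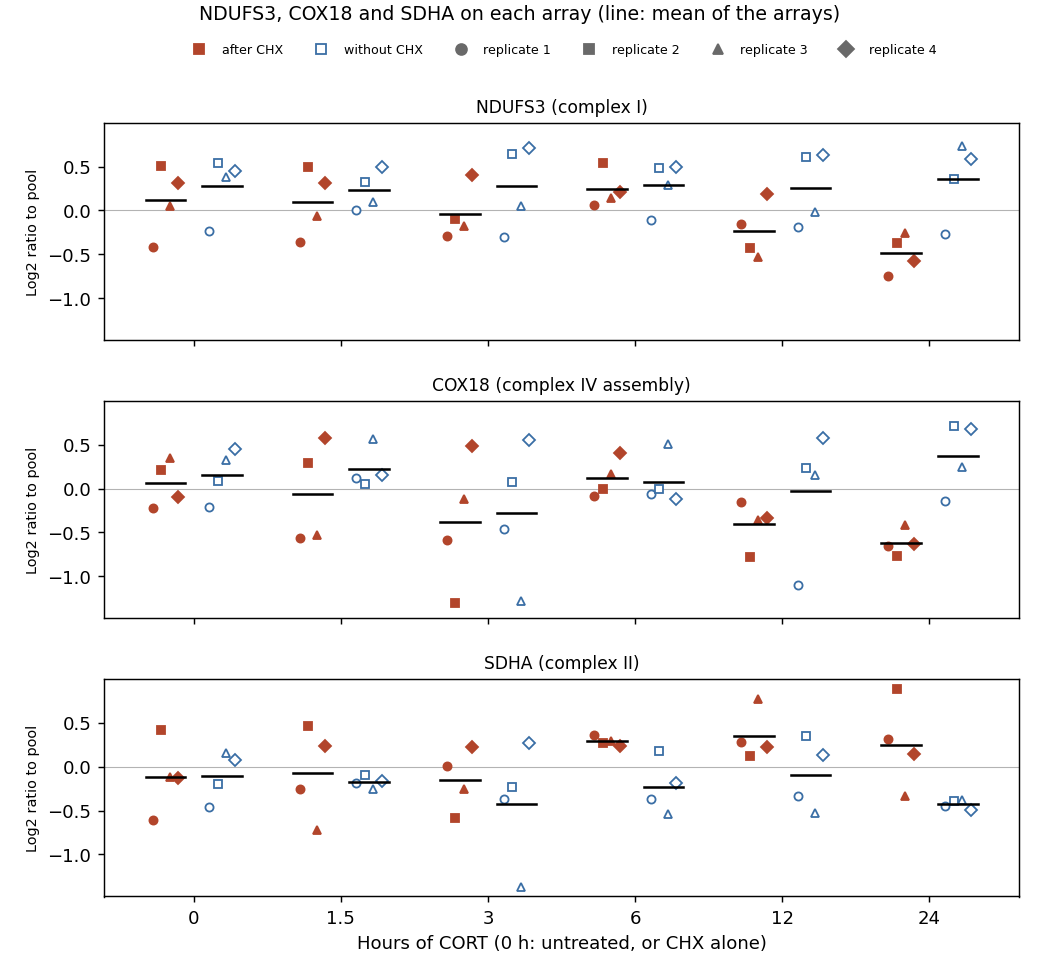
Log2 ratio to the pool of NDUFS3, COX18 and SDHA on each array, by hours of CORT, with the groups after CHX (filled) left of those without (open). Marker shape is the replicate number and the line the mean. At 24 h the groups after CHX lie lower for NDUFS3 (-0.49, against 0.35) and COX18 (-0.62, against 0.38), and higher for SDHA (0.25, against -0.43).

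Samples with the same replicate number deviated together in this comparison (correlations of 0.29 to 0.75 in the 4 pairs), so a fit with the number as a block was also read. It called 5 members, ATP5G1, COX18, NDUFB6, NDUFS3 and SDHA, with 13.9% of all features called. Its limma adjusted p was 0.000224 for NDUFS3, 0.015 for COX18 and NDUFB6, 0.0397 for ATP5G1 and 0.0459 for SDHA. NDUFS3 was lower after CHX in 4 of 4 numbered pairs (-0.47, -0.72, -0.998 and -1.17). For COX18 and SDHA the groups did not overlap, so any pairing would give the same direction in every pair. SDHA was higher by only 0.05 in pair 3. ATP5G1 (c-ring of ATP synthase) differed by -0.29 and NDUFB6 (membrane arm of complex I) by -0.47.

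The NDUFS3 call did not survive every choice of arrays. Without CORT 24 h after CHX replicate 1, 2 or 4 its limma adjusted p was 0.0850, 0.0581 and 0.0835, and without CORT 24 h replicate 2, 3 or 4 it was 0.0763, 0.127 and 0.0971. NDUFS3 also followed the axis of spread (r 0.91), whose score averaged -0.60 ± 0.75 at 24 h after CHX and 0.25 ± 1.26 at 24 h of CORT alone. A fit with each array's score as a covariate was chosen after seeing the data. It called 12.3% of all features, against 4.95% in the main fit. In it the NDUFS3 difference was -0.61 (SE 0.11, limma adjusted p 8.34e-05). Over all 64 alternatives it ran from -1.05 to -0.61, was called in 54, and had a limma adjusted p from 5.2e-08 to 0.208. The count of 54 is no measure of stability. Of the 64, 52 left out arrays, and the difference moved up in 6 of these and down in 6. The others of the 52 left out arrays of groups not compared here.

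Values of cell type markers in CORT 24 h after CHX against CORT 24 h, where 4.95% of all features were called, were as follows. The mean of 14 pituitary markers lay between -0.29 and -0.11 on the arrays of CORT 24 h after CHX, against 0.07 to 0.17 at CORT 24 h, with 3 called lower (CHGA, SCG3 and TSHB). The median difference of these 14 was -0.04, and 6 of them were above 0. The mean of 7 neuron and glia genes lay between -0.56 and -0.20, against -0.16 to 0.27, with TUBB3 called lower, a median difference of -0.41 and 2 of 7 above 0. The mean of 12 fibroblast and matrix genes overlapped between the groups, at -0.53 to -0.14 against -0.22 to 0.27, with none called, a median difference of -0.33 and 3 of 12 above 0. Their part in the NDUFS3 difference was not tested. The array means of 6 immune, 5 endothelial, 5 cartilage and muscle and 2 red cell markers overlapped between the groups with none called, and since the values are ratios to a pool, no marker can be said to be absent.

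At the other times NDUFA4, COX6C and UQCRFS1 differed by 0.32, 0.32 and 0.42 between 1.5 h of CORT after CHX and 1.5 h of CORT alone, while NDUFA9 differed by -0.46 and ATP5O by -0.32 (limma adjusted p 0.355 to 0.460, none called). Only for NDUFA9 did the groups not overlap, against 5.1% of all features. These NDUFA4 and UQCRFS1 differences use the same low CORT 1.5 h arrays as above. COX17, the copper chaperone of complex IV, had 0.14, 0.65, 0.31 and 0.41 at 6 h of CORT after CHX, against -0.37, -0.01, -0.40 and 0.39 at 6 h of CORT alone (0.48, SE 0.21, limma adjusted p 0.254). Only replicate 4 of the CORT cells lay within the range of the cells given CHX first.

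A moderated F-test over all 12 groups called no member, although 8.37% of all features were called. Unadjusted p-values under 0.05 were found for 3 of 42 genes (7.14%, against 19.4% of all features), NDUFA4 (p 0.0235 in limma's test, adjusted p 0.158), NDUFS3 (adjusted p 0.188) and UQCRHL (adjusted p 0.247). An F-test of the 5 differences between CORT responses with and without CHX called 0 members and 0% of all features. Unadjusted p-values under 0.05 were found there for 1 of 42 members (2.38%), NDUFA4, against 4.71% of all features.

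The mean over the tested genes of each complex was compared over arrays, with no test. Over 80 pairs of complex and comparison, differences of complex means ran from -0.23 to 0.30, and in only 1 did the groups not overlap. That was complex IV at 24 h of CORT, with array means from -0.10 to 0.00 after CHX and from 0.04 to 0.13 without (-0.06 ± 0.04 and 0.10 ± 0.04, SD, n = 4 each). Of single features 10.3% did not overlap in that comparison, and 4.06% over all 16. COX18, an assembly factor, had by far the largest difference of its 7 genes (-0.99). The median of the 7 was -0.08, with 2 above 0, so the difference of -0.16 in the mean is not one of complex IV as a whole.

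**Figure D4:**
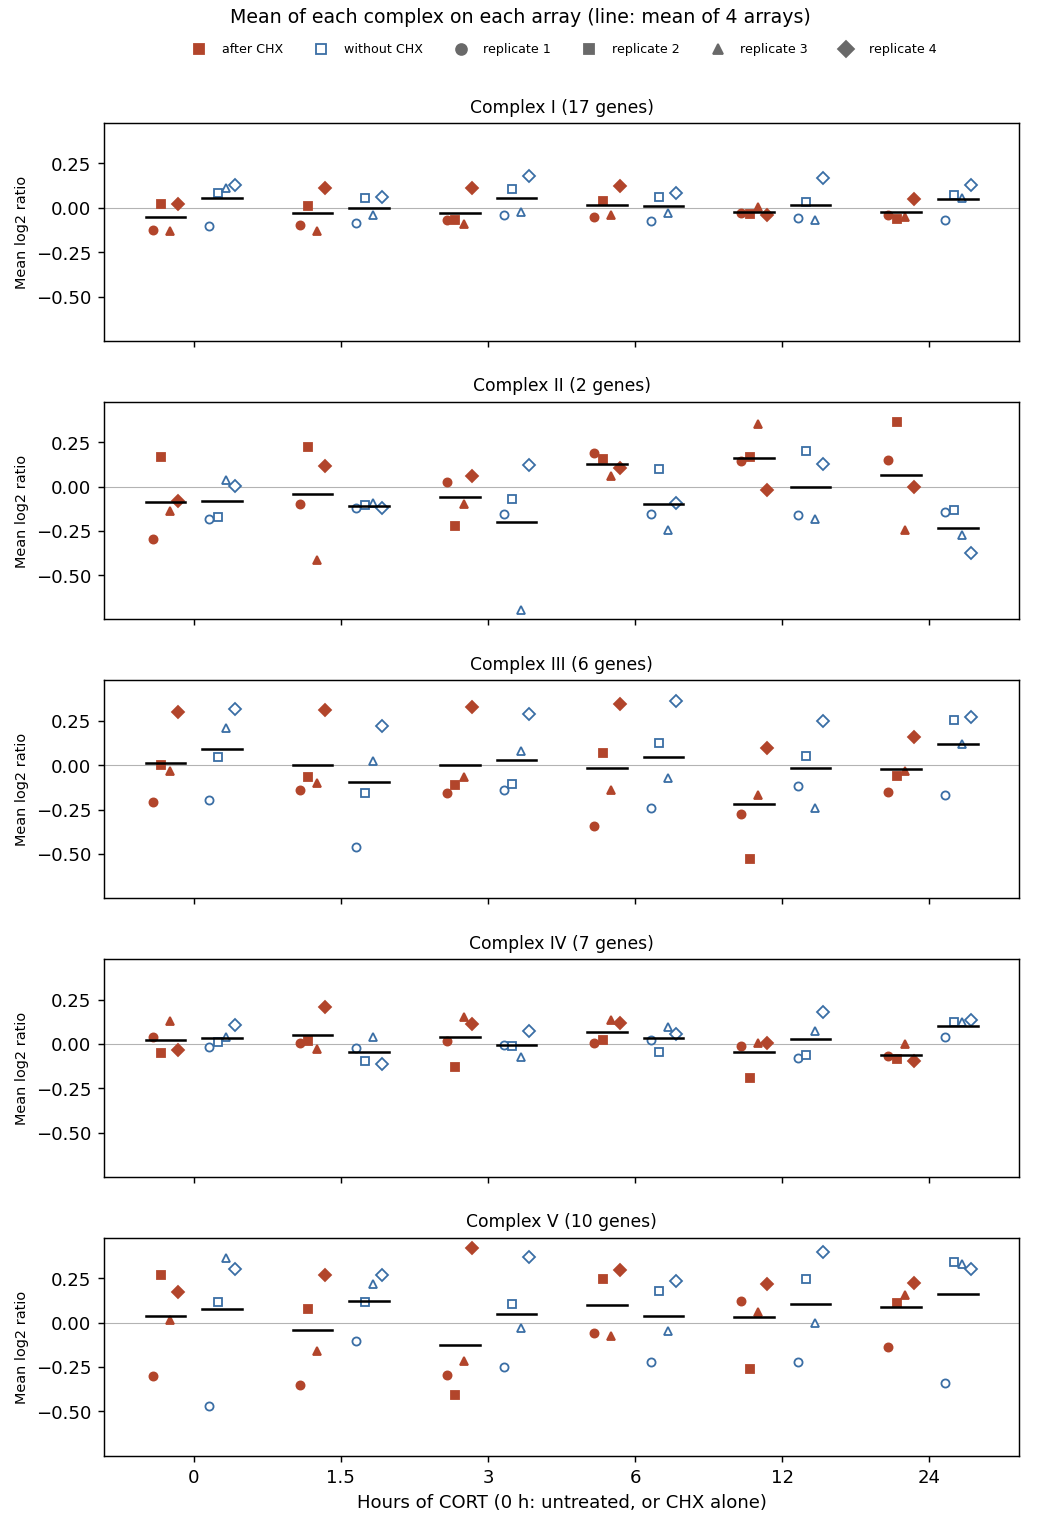
Mean log2 ratio of the tested genes of each complex on each array, by hours of CORT, with the groups after CHX (filled) left of those without (open). Marker shape is the replicate number and the line the mean of 4 arrays. At 24 h of CORT without CHX the complex V arrays run from -0.34 to 0.34, while those of complex IV keep between 0.04 and 0.13.

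Complex I had 17 tested genes, and its median difference lay between -0.11 and 0.11 in all 16 comparisons. After NDUFA4 and NDUFS3 the lowest F-test p-values in it were those of NDUFV3 and NDUFA9 (limma adjusted p 0.532 and 0.535). NDUFAF1, which assembles an early part of complex I, had a limma F-test adjusted p of 1.00 and group means between -0.16 and 0.06. Complex II was measured by 2 genes of different behaviour. SDHD, a membrane anchor, had group means between -0.12 and 0.09 (F-test p 0.659 unadjusted in limma), while those of SDHA lay between -0.43 and 0.35 (p 0.0642).

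Complex III had the lowest median of any complex, -0.32 at 12 h of CORT after CHX against CHX alone, and -0.26 against 12 h of CORT alone. Its array means there were -0.27, -0.53, -0.17 and 0.10 at CORT 12 h after CHX, against -0.21, 0.00, -0.03 and 0.30 in CHX alone, and replicate 2 was lowest. UQCRB, a small subunit that takes part in ubiquinone binding, had means of -0.05, -0.10, -0.15, -0.22 and -0.31 at 1.5, 3, 6, 12 and 24 h after CHX, with 0.07 in CHX alone. Without CHX its means ran from 0.07 to 0.25 in all 6 groups. The 24 h values of UQCRB were -0.34, -0.43, -0.18 and -0.31 after CHX, against -0.37, -0.02, 0.29 and 0.38 without, and the difference of -0.39 had a limma adjusted p of 0.323. UQCRC2, a core protein of complex III, had group means between -0.10 and 0.17 (limma F-test adjusted p 0.577).

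Complex IV was measured by 3 genes named for subunits, COX6C, COX7C and COX7A2L, and by 4 assembly factors. COX6C had a group mean of -0.25 ± 0.23 at 1.5 h of CORT, its lowest, and 0.22 ± 0.29 at 12 h of CORT, its highest (limma F-test adjusted p 0.506). Limma's F-test gave unadjusted p-values of 0.424 for COX7A2L, 0.0977 for COX18, 0.727 for COX17, 0.836 for COX20 and 0.983 for COX10. COX10, which takes part in the making of heme A, and COX20, a chaperone of a complex IV subunit, kept to within 0.11 of the pool in all group means.

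Complex V had 10 tested genes, and none had an F-test p under 0.05. The lowest were ATP5G1 (p 0.293 in limma), ATP5I (0.516), ATP5B (0.590, the catalytic beta subunit) and ATP5PB (0.666, the stator subunit b). ATP5B had 1 very low array, -1.22 in replicate 2 of CORT 3 h after CHX, whose other arrays read -0.39, -0.23 and 0.21. ATP5F1AW and ATP5F1AZ, the W and Z chromosome copies of the alpha subunit, are near-identical genes whose probes may bind each other's transcripts, and they correlated at 0.94 across arrays.

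Within groups, these genes also differed between arrays in a shared way. An axis was computed as the first principal component of 8848 other features after group means were removed, with ribosomal protein genes set as positive. Members had a median correlation of 0.64 with it, against -0.18 for all features. Correlations above 0.5 were found in 25 of 42 genes (59.5%, against 25.7% of all features) and below -0.5 in 10 (23.8%, against 36.8%). No p is given, since all points share arrays, pool and normalisation.

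Of 6 tested core subunits of complex I, 4 had an r above 0.5 with the axis and 2, NDUFS7 and NDUFS8 (-0.58), one below -0.5. ATP5F1AW had an r of 0.96 with the axis, ATP5C1 (the central rotor shaft of ATP synthase) 0.95, NDUFS1 (the largest iron-sulfur subunit of complex I) 0.94, ATP5F1AZ 0.93, NDUFS3 0.91 and ATP5H 0.90, the highest values. At the negative end were NDUFA2 (-0.92), NDUFS7 (-0.87), COX7A2L (-0.81), COX20 (-0.79), COX10 (-0.71) and NDUFAF1 (-0.68). The measured values of genes of 1 enzyme could thus run in opposite directions: NDUFA2 and NDUFS1, both of the electron-input arm of complex I, correlated at -0.87. NDUFA2 was read by 1 probe, and the 2 probes of NDUFS1 correlated at only 0.27, with r of 0.31 and 0.96 with the axis. Whether probes or transcripts ran in opposite directions was not tested. All 6 genes of complex III were positive (0.51 to 0.78), as were 8 of 10 in complex V. These are means over probes, and UQCRC2, ATP5B and ATP5G1 each had a negative probe (-0.58, -0.54 and -0.77) beside positive ones. Of the 5 assembly factors 3 were below -0.5, and COX17 (0.75) and COX18 (0.68) were positive.

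**Figure D5:**
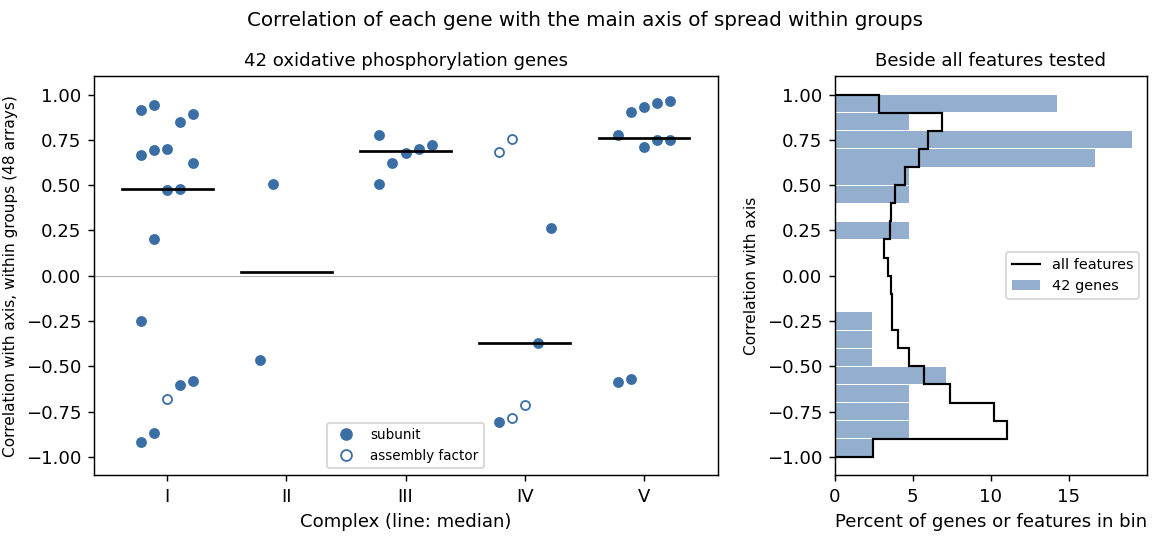
Left, correlation of each of 42 genes with the axis of within-group spread over 48 arrays, by complex, with the line at the median (0.48 in complex I, 0.02 in II, 0.69 in III, -0.37 in IV and 0.76 in V). Right, the share of the 42 genes (bars) and of all 11207 features (line) per bin of correlation: the 42 genes lie mostly above 0.5.

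Averaged by complex, the means followed the axis at 0.96 for complex V, 0.80 for I, 0.78 for III, 0.37 for II and 0.36 for IV. Complex means also followed each other, at 0.86 between I and V, 0.84 between III and V and 0.79 between I and III. Spearman's rho was 0.85, 0.88 and 0.78, and Pearson's r without the 2 arrays farthest from the median was 0.84, 0.83 and 0.77. Between single genes the median r was 0.23 over 218 pairs within complexes and 0.22 over 643 pairs of different complexes. The complexes were unlike in this: the median was 0.63 in complex III (15 pairs) and 0.60 in V (45 pairs), but 0.06 in both I (136 pairs) and IV (21 pairs), and the only pair of complex II stood at -0.14.

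The axis went with the replicate number. Its median score was -1.55, 0.65, -0.24 and 0.99 over the 12 arrays of numbers 1 to 4, and the mean over the 42 genes had medians of -0.12, 0.05, -0.03 and 0.18. The sources used here do not say what the number stands for. Within each number (12 arrays each) complex V still followed the axis at 0.89 to 0.95 and complexes I and V each other at 0.63 to 0.86, whereas complexes I and III ranged from 0.05 to 0.63.

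Lists of other genes correlated with the axis to different degrees. The median r was 0.72 over 13 glycolysis genes, 0.77 over 14 mitochondrial carrier and import genes and 0.63 over 26 proteasome genes, against -0.04 over 31 mitochondrial ribosome genes and 0.18 over 14 genes of the tricarboxylic acid cycle and pyruvate dehydrogenase. For 47 genes named RPL or RPS it was 0.72, but the sign of the axis was set so that these were positive, so their direction is no result. No test was made between these lists.

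Probes of the same gene did not always run together. Over 25 pairs of probes made from different clones of a gene, the within-group correlation had a median of 0.39 and ran from -0.74 to 0.87, with 9 pairs below 0. The 3 probes of ATP5G1 showed the widest disagreement: probes 42.13.3 and 8.4.5 correlated at 0.87, and probe 45.2.12 at -0.68 and -0.74 with them. Against the axis these probes had r of 0.76, 0.84 and -0.77. In CORT 24 h after CHX against CORT 24 h they gave -0.35, -0.62 and 0.09. UQCRC1, the gene with the next widest gap in fitted differences, had 2 probes that correlated at 0.58, with r of 0.37 and 0.91 with the axis. A gene's mean over probes can thus mix opposite signals, which touches the values of ATP5G1, ATP5B, NDUFV1, UQCRC2 and SDHD, where at least 1 pair of probes correlated below 0.

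Regulators of mitochondrial genes were read beside the members. Of 17 listed, 7 were tested: GABPA and GABPB1 (subunits of a factor that binds many respiratory gene promoters), TFAM and POLRMT (transcription of mitochondrial DNA), PPARGC1A and PPRC1 (coactivators of mitochondrial biogenesis) and HIF1A (the oxygen-sensitive factor). No regulator was called by CORT without CHX, by CHX alone or by CORT after CHX against CHX alone. POLRMT was higher at 12 h of CORT after CHX than at 12 h of CORT alone (0.25 ± 0.24 and -0.41 ± 0.49, difference 0.66, limma adjusted p 0.037). HIF1A was higher at 24 h (0.37 ± 0.34 and -0.10 ± 0.13, SD, n = 4 each, difference 0.46, limma adjusted p 0.011). Of all features 1.4% were called in the 12 h comparison and 4.95% in the 24 h comparison. PPRC1 differed by 0.96 at 24 h with a limma adjusted p of 0.053. At 24 h GABPA, GABPB1, PPARGC1A and TFAM differed by 0.31, 0.28, 0.10 and -0.03. POLRMT, at 0.37 there, did not pass (limma adjusted p 0.240). The array means of the 7 regulators lay between 0.07 and 0.35 at 24 h of CORT after CHX, against -0.21 to -0.07 at 24 h of CORT alone.

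Genes of other energy pathways were read beside the members, and a few were called. PDK4, the kinase that turns off pyruvate dehydrogenase and a known glucocorticoid target, was called as 1 of 14 genes of its list. It was higher than in CHX alone by 0.85, 0.99 and 0.81 at 1.5, 6 and 12 h of CORT after CHX (limma adjusted p 0.020 or less). Of all features 0.0178%, 1.15% and 1.12% were called at 1.5, 6 and 12 h of CORT after CHX. LDHA (lactate dehydrogenase) was lower by 0.64 at 12 h and by 0.89 at 24 h of CORT after CHX than in CHX alone. ENO1 (enolase) was lower by 1.55 at 24 h, so that 2 of 13 glycolysis genes were called at 24 h, against 2.24% of all features. In CORT 24 h after CHX against CORT 24 h, 4.95% of all features were called. SUCLG1 (succinyl-CoA ligase, the step before succinate dehydrogenase) was lower by 0.50 there after CHX. SLC25A6 (an ADP/ATP carrier) was lower by 0.81 there. ENO1 and LDHA were called there too, with differences of -1.73 and -0.70 (limma adjusted p 0.011 and 0.0066). PDK4 was higher by 0.74 at 6 h of CORT after CHX than at 6 h of CORT alone (limma adjusted p 0.0033), where 3.93% of all features were called. None of the 14 carriers and assembly factors outside the naming rule was called in any of the 16 comparisons.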

How the data were processed

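Values are the authors' deposited log2 ratios of 48 two-colour cDNA arrays (amplified RNA, sample in Cy3, pool in Cy5, per the labels). Background correction, normalisation and software are not given in the sources used here. Array medians of -0.038 to 0.048 and SDs of 0.301 to 0.324 are alike across arrays, so differences in total RNA are not seen. The labels give 2 numbers of slides for the pool, 16 and 48, which was not resolved. Spot intensities were not used, so the number of arrays limits precision.

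Of 19200 probes 10601 had 1 gene symbol, 0 had several and 8599 had none. Probes of a gene were averaged, and unnamed probes kept singly. Exact zeros made up 2.34% of the values, and 99.7% of them were in probes with a value on 24 or fewer arrays. They were kept in the main fit, and an alternative took them as missing. Features with a value on at least 3 of 4 arrays in each group (11207 of 15027, 0.87% of values missing) were fitted with limma 3.58.1 in R 4.3.3 by group means over all 48 arrays (36 residual degrees of freedom), two-sided, with Benjamini-Hochberg adjustment per comparison at 0.05. The fit was tested on simulated data with independent noise for each feature and array. Such data hold no shared axis or replicate effect, so the test does not cover error rates under that spread. Members and lists were chosen with earlier results of these data known. Genes named are those called and up to 4 subunits per complex with the lowest F-test p. Added to these are the 3 lowest p-values in each family of comparisons, assembly factors and the 2 genes whose probes differ most. Some called genes of other lists and all tested regulators are also named, but no gene of the ribosome or proteasome lists. Others were named after their values were seen. Replicate numbers come from the sample titles: every pair's correlation passed 0.1 in 6 of 16 comparisons. The blocked fit is printed beside the result for CORT 24 h after CHX against CORT 24 h. In the others of these it called no member, with 0.0178% to 8.53% of all features called. Alternatives were other scalings, value filters, probes singly, weights, axis covariates, the block, fewer groups and leaving out arrays.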

Additional observations from a re-analysis of the deposited data

Results flagged for a closer look

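Single arrays far from the other 3 of their group were looked for in the 5 complex means and the 23 named genes, in 333 sets of 4 values, and 16 were found (4.80%), where chance gives about 5%. Complex V in CORT 24 h had 1 array at -0.34 with the others at 0.30 to 0.34, and UQCRC2 in the same group had 1 at -0.25 with the others at 0.18 to 0.21. Both were replicate 1. Complex IV stood out low in CORT 24 h (0.036, with the others from 0.12) and in CORT 12 h after CHX (-0.19, with the others from -0.01). Complex I stood out high in CORT 3 h after CHX (0.11, with the others up to -0.07), and complex III in CORT 1.5 h after CHX (0.31, with the others up to -0.07).

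Among genes, low arrays were found for ATP5I in CORT 3 h (-0.33), COX17 in untreated cells (-0.45) and CHX alone (-0.15), COX7A2L in CORT 1.5 h (-0.44) and UQCRHL in CORT 12 h (-0.54). High ones were found for ATP5I in CORT 12 h after CHX (0.37), COX10 in untreated cells (0.25) and CORT 1.5 h (0.045), COX7C in CORT 3 h (0.33) and SDHD in CORT 24 h after CHX (-0.016, with the others from -0.16 to -0.15).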

How the results depend on the processing

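The median over the 42 genes moved by less than the SD between arrays in all 1024 alternative values of the 16 comparisons. That limit is wide beside such small medians. For CORT 6 h against untreated the median of -0.06 ran from -0.16 to 0.02 with arrays left out. Only the 3 differences of lowest p in each family, and COX18 at 24 h after CHX against CHX alone, were followed for sign. None of these changed sign. In CORT 24 h after CHX against CORT 24 h, probe 45.2.12 of ATP5G1 gave 0.09 where the gene gave -0.29. Counts of called members depended on how the spread between arrays was modelled. In CORT 24 h after CHX against CORT 24 h (1 called), the count was 5 with the replicate block, 5 with the axis of spread as covariate, 10 with 2 axes, 7 with array weights and 4 with the score of the whole array, an alternative chosen after seeing the data. The same fits called 13.9%, 17.1%, 21.2%, 16.8% and 12.3% of all features. Leaving out arrays gave 0 to 2, and fitting only the groups compared called COX18 in place of NDUFS3 (limma adjusted p 0.0590 for NDUFS3). Leaving out replicate 2, 3 or 4 of every group gave NDUFS3 a limma adjusted p of 0.176, 0.206 and 0.208.

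The F-test over 12 groups (0 called) gave 22 with 2 axes, 20 with weights, 14 with the axis, 8 with the block and 7 with the whole-array score, and 0 to 1 with arrays left out (UQCRHL without CORT 12 h after CHX replicate 4, NDUFS3 without replicate 1 of every group). These fits also called more of all features, 50.1%, 48.2%, 34.1%, 22.3% and 20.9%, against 8.37%. With 2 axes, weights or the axis, the share of the 42 members called was near that of all features. The test of a different response after CHX (0) gave 5 with 2 axes and 1 with the axis, beside 9.31% and 2.2% of all features.

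Other comparisons called 0 members, and the alternatives gave the following. CORT 1.5 h against untreated gave 4 with 2 axes (NDUFA4, NDUFB4, UQCRFS1 and UQCRHL) and 1 with weights (NDUFA4). CORT after CHX against CHX alone gave 2, 3 and 1 at 3 h (2 axes, weights, axis), 2 and 1 at 6 h (2 axes, axis), and 4 and 1 at 12 h (2 axes, axis). At 24 h it gave 4 with 2 axes, 5 with the whole-array score and 1 each with weights, axis and block (NDUFS3 each time). After CHX against CORT alone gave 5 and 2 at 1.5 h (2 axes, axis), 3 with 2 axes and 1 each with the axis and the whole-array score at 6 h (COX17), and 3 with 2 axes and 1 each with weights, axis and whole-array score at 12 h (NDUFS3). Adding an axis made from within-group residuals leaves complete differences as they are and only lowers their error. The same fits called 0.303% (weights) and 4.93% (2 axes) of all features at CORT 1.5 h against untreated, and 3.64% to 15.4% in the others. The replicate block changed no call in the remaining tests.

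Centring arrays on their median gave correlations of 0.90 (complex I and axis), 0.57 (I and IV), 0.93 (I and V), 0.63 (IV and axis) and 0.67 (IV and V), against 0.80, 0.29, 0.86, 0.36 and 0.43. Quantile normalisation gave 0.63 for complex IV and the axis, and values not centred by group gave 0.92 for complex V, against 0.96. The cause was not tested. With 4 arrays per group, the interval of a gene's difference reached a median of 0.40 to either side.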
